A study of Chlorocebus sabaeus with 45 samples.

Results

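The 10 enzymes of the defence against reactive oxygen species described here, PRDX1, PRDX2, PRDX3, PRDX5, PRDX6, CAT, SOD1, SOD2, GPX4 and TXN, were measured in the blood of vervet monkeys (Chlorocebus sabaeus). They were taken by gene symbol, and all 10 were found among the 33994 genes of each table and among the 18753 genes tested. The blood came from 15 wild-born juvenile males of St. Kitts, each sampled on day 0, day 3 and day 14 of relocation and quarantine, which gave 45 whole-blood RNA libraries and 15 per time point. The question was how the blood transcriptome responded to separation from the troop, a psychosocial stressor. On day 0 the animals were bled in the field directly after trapping, under ketamine and xylazine. On days 3 and 14 they were housed singly in quarantine and bled under dexmedetomidine and midazolam. Place and sedation therefore cannot be told apart from the change against day 0, whereas days 3 and 14 shared both. Blood was also drawn between days 3 and 14, so that repeated bleeding cannot be told apart from time in quarantine. Each animal came from its own troop, and the libraries hold no animals left with their troop over the same days.

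Superoxide dismutases turn superoxide into hydrogen peroxide, with SOD1 acting mainly in the cytosol and SOD2 in mitochondria. Catalase and the peroxiredoxins break the peroxide down, thioredoxin (TXN) returns most peroxiredoxins to their reduced form, and GPX4 uses glutathione to reduce lipid peroxides in membranes. In blood, PRDX2 and catalase are among the abundant proteins of red cells, which keep some of their RNA as reticulocytes, while SOD2 is induced in white cells by inflammatory cytokines.

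Fragments on genes numbered between 13216275 and 31469332 per library, and the lowest count behind any value of the 10 enzymes was 174 fragments, for TXN. Levels are given as FPKM (fragments scaled to gene length and to the library's total) divided by a scaling factor per library, the trimmed mean of M values (TMM), and are called scaled FPKM. The 20 most abundant genes took 10.8% ± 3.54 (SD, n = 15) of the day 0 fragments, a share that was 14.4% ± 5.48 by day 3 and 23.1% ± 6.60 by day 14. The typical gene, by the median log2 fold change over those tested, stood at −0.36 without TMM for day 14 vs. day 0 and at −0.35 for day 14 vs. day 3, and with TMM both values were −0.02. A pair of libraries stood apart in the number of genes above 0, the day 0 library of animal 9 with 30752 and the day 14 library of animal 4 with 31402, where the next had 26792. Every call made on the 10 enzymes with TMM and all 45 libraries was also made without this pair of libraries. For the calls made without TMM or with an animal left out, this was not run.

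PRDX2 alone was called on day 3 vs. day 0, and 5 of the 10 were called up on day 14 against day 0. On day 3 vs. day 0, PRDX2 rose and the other 9 did not pass the threshold of an adjusted p-value under 0.05 (limma, animal as a block), where 10.1% of all tested genes were called up and 9.01% down, so that 1 of 10 is close to the background. On day 14 vs. day 0, PRDX2, PRDX3, PRDX5, PRDX6 and CAT rose, 5 of 10, and 0 fell, where 23.0% of all genes were called up and 21.0% down. The median log2 fold change of the 10 was 0.43, against −0.02 for all genes, and without TMM it was 0.00 against −0.36. Between day 3 and day 14, PRDX6, CAT and TXN rose and 0 of the 10 fell, where 13.9% of all genes were called up and 9.81% down. The unadjusted p-value was under 0.05 for 3 enzymes above and 1 below 0 on day 3, for 6 and 1 on day 14 vs. day 0, and for 7 and 0 on day 14 vs. day 3. The share of all genes at this unadjusted cut was not computed, so these counts cannot be read against a background. Without TMM, 2 enzymes were called up and 1 down on day 3 (6.23% and 6.57% of all genes), 4 up and 1 down when day 14 was set against day 0 (9.29% and 49.9%), and 0 up and 1 down when it was set against day 3 (4.98% and 46.1%). Without the animal block 0 enzymes passed between day 3 and day 14. With the RNA integrity number added to the fit, 3 were called against day 0 and 0 against day 3 on day 14, where 21.7% and 9.81% of all genes were called in either direction. The median log2 fold change of the 10 on day 14 vs. day 0 was then 0.21, against 0.00 for all genes. In whole blood, fewer cells of a type and less RNA per cell cannot be told apart.

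**Figure D1:**
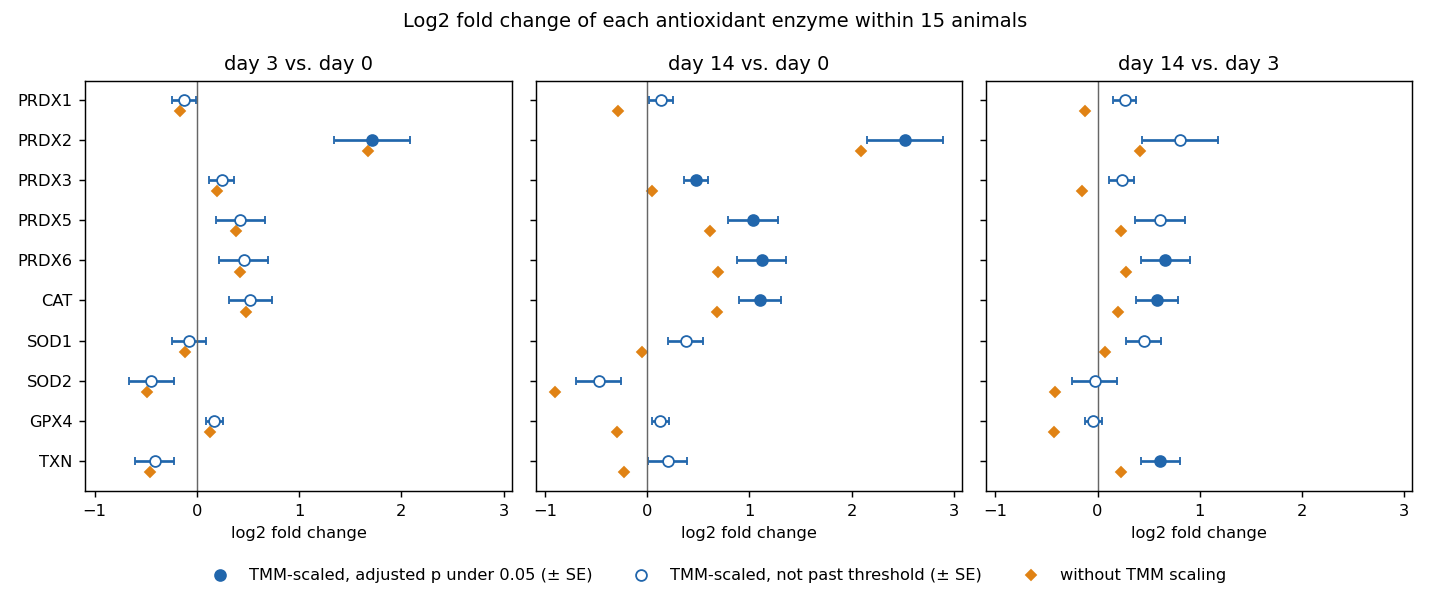
Log2 fold change of each enzyme (horizontal axis) in the 3 comparisons, as circles with the standard error, filled where the adjusted p-value was under 0.05, and without TMM scaling as diamonds. PRDX2 lies farthest to the right in each panel, and on day 14 vs. day 0 the diamonds of PRDX1, SOD1, GPX4 and TXN lie below 0 while their circles lie above it.

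Markers of blood cell types moved over the same days. Of 15 measured markers of reticulocytes and erythroid precursors, 13 rose on day 3 and 15 on day 14 vs. day 0, and 8 rose from day 3 to day 14. Their summed level had a median of 4547 scaled FPKM on day 0 (range 414 to 20892), 13331 on day 3 (3629 to 38890) and 33924 on day 14 (6777 to 60915). Neutrophil markers went the other way, with 11 of 15 falling on day 3 and 14 of 15 on day 14, and their summed level had a median of 3998 (1400 to 43967), 2661 (606 to 7135) and 2348 scaled FPKM (566 to 4412). Of 11 platelet markers, 11 rose on day 3 and 7 on day 14 vs. day 0, and 7 fell between day 3 and day 14 (summed medians of 662, 2045 and 1523 scaled FPKM, with ranges of 260 to 4405, 654 to 4953 and 432 to 3562). Of 7 NK cell markers, 6 rose on each later day vs. day 0 and 3 from day 3 to day 14 (240, 476 and 778 scaled FPKM, with ranges of 110 to 634, 220 to 829 and 300.4 to 1447). The remaining lists had 3 rises and 0 falls among 9 monocyte markers on day 3 and 1 and 3 on day 14, 1 and 2 among 10 T cell markers on day 3 and 3 and 0 on day 14, and 0 and 0 among 6 B cell markers on day 3 and 0 and 2 on day 14. From day 3 to day 14, 6 monocyte and 3 B cell markers fell, 2 T cell markers rose, and 0 of the neutrophil markers passed the threshold. Summed levels on days 0, 3 and 14 had medians of 1607, 1888 and 1705 scaled FPKM for monocytes, 692, 630.1 and 690.2 for T cells, and 298, 295 and 205 for B cells. No marker was at 0 in all libraries, and 1 neutrophil marker was at 0 in some. Of all tested genes, 10.1% were called up and 9.01% down on day 3, and 23.0% and 21.0% on day 14 vs. day 0. From day 3 to day 14 the shares were 13.9% and 9.81%. On day 14 vs. day 0 the T cell rises are close to the background, and the monocyte and B cell falls rest on few markers. The marker counts depended on the scaling and on the covariate. Without TMM, T cell markers had 0 rises and 5 falls when day 14 was set against day 0, 6 of 6 B cell markers fell and 2 platelet markers rose, while 15 erythroid markers still rose and 15 neutrophil markers fell. In that comparison 9.29% of all genes were called up and 49.9% down, so that the T cell falls are at the background. Against day 3, without TMM, 5 neutrophil, 3 T cell and 6 B cell markers fell, 5 erythroid markers rose, and 0 NK cell markers passed. Of all genes, 4.98% were then called up and 46.1% down, so that the neutrophil and T cell falls do not exceed the background. With the RNA integrity number in the fit, 10 erythroid and 3 NK cell markers rose and 7 neutrophil markers fell on day 3, while 15 erythroid, 6 NK cell, 2 platelet and 1 T cell markers rose and 10 neutrophil, 1 monocyte and 0 B cell markers fell for day 14 against day 0. In that fit, 3 erythroid and 2 NK cell markers rose from day 3 to day 14, 4 platelet, 2 monocyte and 2 B cell markers fell, and 0 T cell markers passed. It called 7.98% of all genes up and 6.77% down on day 3, and 12.9% and 8.76% on day 14 vs. day 0. From day 3 to day 14 it called 7.51% up and 9.81% in either direction. The part of these shifts in the changes of the antioxidant enzymes was not tested.

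**Figure D2:**
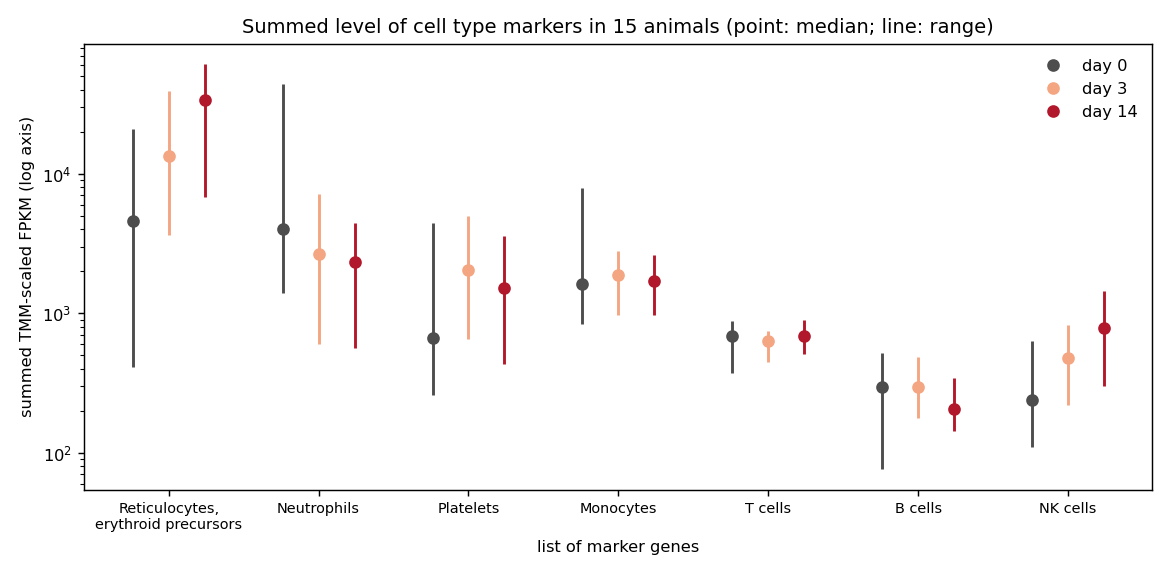
Summed scaled FPKM of the markers of 7 blood cell types (log axis) on days 0, 3 and 14, with the point at the median and the line from the lowest to the highest of 15 animals. The erythroid sum is higher and the neutrophil sum lower on each later day than on day 0 by their medians, while the ranges of the days overlap.

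PRDX2, a cytosolic peroxiredoxin, had the largest estimated change of the 10 enzymes in both comparisons with day 0. Its level on day 0 was lowest in animal 9 at 19.0 scaled FPKM, with a median of 107 and a highest value of 350 in animal 5. On day 3 the lowest, median and highest values were 81.5, 277 and 1349, and on day 14 they were 106, 617 and 1863. The days overlapped, but 10 of the 15 day 14 libraries were above every day 0 library. PRDX2 rose by a log2 fold change of 1.72 on day 3 (3.28-fold, standard error 0.37, limma adjusted p = 0.00206), with a higher level in 15 of 15 animals. On day 14 vs. day 0 the rise was 2.52 (5.73-fold, standard error 0.37, adjusted p = 3.81e-06), seen in 14 animals. The exception was animal 13, with a log2 change of −0.35, while animal 14 had the highest change, 5.80. From day 3 to day 14 the estimate was 0.80 (standard error 0.37, adjusted p = 0.111), with a higher level in 9 animals and a lower level in 6. Both rises against day 0 were called without TMM as well, at 1.67 and 2.09, and the estimate from day 3 to day 14 was then 0.42.

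**Figure D3:**
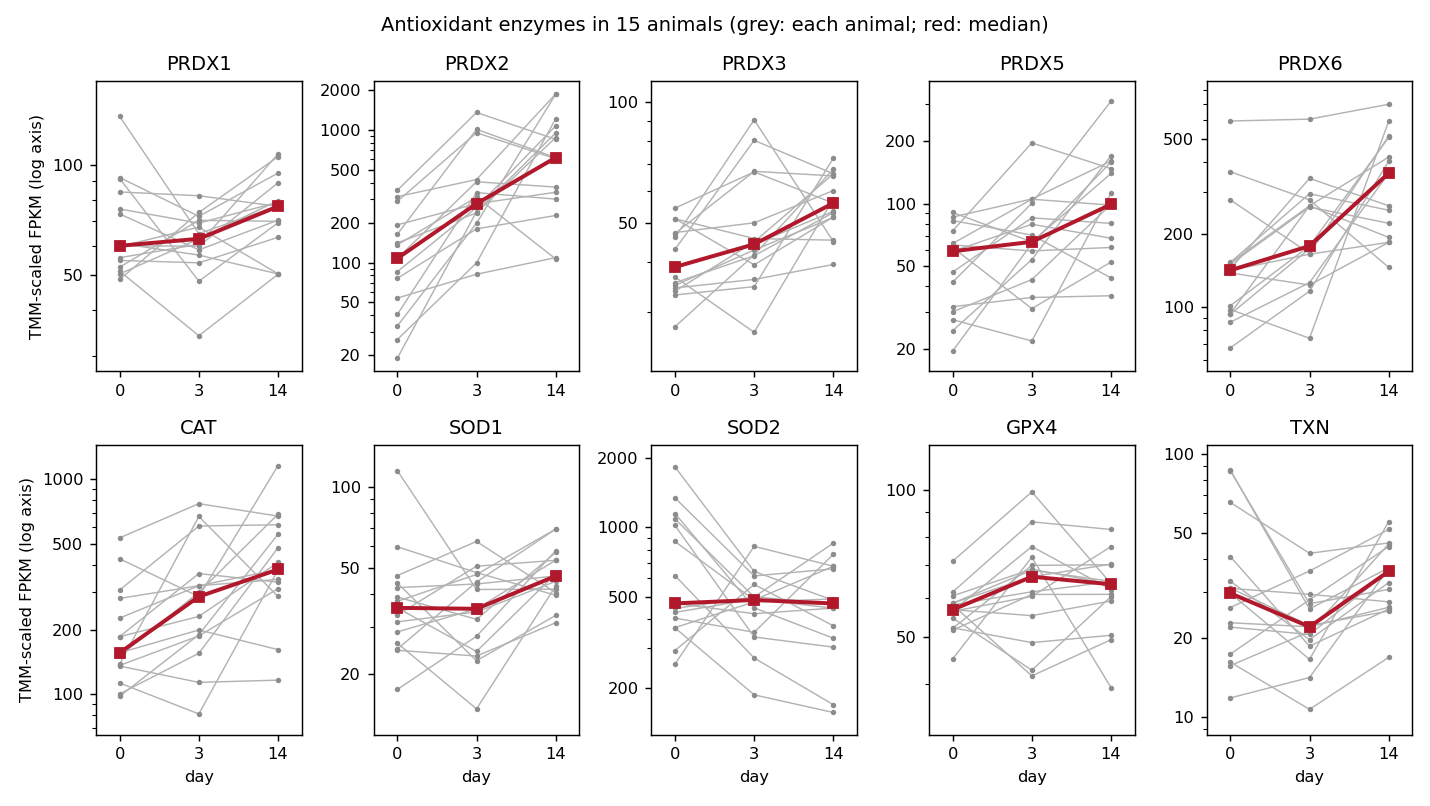
Scaled FPKM (log axis) of each of the 10 enzymes on days 0, 3 and 14, with a grey line for each of 15 animals and the median in red. The medians of PRDX2, PRDX3, PRDX5, PRDX6 and CAT are higher on day 14 than on day 0, that of SOD2 is 467, 483 and 466 scaled FPKM while its highest animals on day 0 come down, and TXN dips on day 3.

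CAT, the catalase that splits hydrogen peroxide into water and oxygen, ranged on day 0 from 98.0 to 534 scaled FPKM with a median of 156. On day 3 it ranged from 81.1 to 770.4 with a median of 285, and on day 14 from 116 to 1159 with a median of 381. Only 5 of the 15 day 14 libraries were above all day 0 libraries, since animals 7 and 15 were already high on day 0. CAT rose by 1.105 on the log2 scale on day 14 vs. day 0 (2.15-fold, standard error 0.21, limma adjusted p = 8.41e-05), with a higher level in 14 animals. The exception was animal 4, whose day 14 library is among the pair that stood apart. On day 3 vs. day 0 the estimate was 0.52 (standard error 0.21, adjusted p = 0.0760, higher in 12 animals), and it passed the threshold without TMM (0.48, adjusted p = 0.0250). The rise on day 14 against day 0 was smaller without TMM and still called (0.68, adjusted p = 2.35e-04).

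PRDX6, the peroxiredoxin that works with glutathione and also reduces oxidised phospholipids, had a median of 142 scaled FPKM on day 0 (67.3 to 594), 179 on day 3 (73.8 to 605) and 360 on day 14 (146 to 697). Animal 7 was the highest on each day. The ranges overlapped, and all 15 day 14 libraries were above the day 0 median. PRDX6 rose on day 14 vs. day 0 by 1.12 on the log2 scale (2.18-fold, standard error 0.24, adjusted p = 3.70e-04), in 14 animals. The exception was animal 13, which went from 365 to 146 scaled FPKM. Without TMM the rise was 0.70 (adjusted p = 6.96e-04).

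PRDX5, a peroxiredoxin found in mitochondria, peroxisomes and the cytosol, had a median of 58.9 scaled FPKM on day 0 (19.5 to 90.6), 65.4 on day 3 (21.8 to 196) and 99.1 on day 14 (36.0 to 311). On day 14, 9 of 15 libraries exceeded all day 0 libraries. It rose by 1.04 on the log2 scale (2.05-fold, standard error 0.24, adjusted p = 8.59e-04) on day 14 vs. day 0 and was higher in 12 animals. With the RNA integrity number, which was higher on the later days, as a covariate, the estimate was 0.73 and the call was lost (adjusted p = 0.0835). Without TMM it was 0.61 and kept its call (adjusted p = 0.00332).

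PRDX3, the mitochondrial peroxiredoxin, was more even between animals. Its level was 38.8 scaled FPKM by the median on day 0 (27.5 to 54.4), 44.2 on day 3 (26.7 to 90.3) and 56.0 on day 14 (39.4 to 72.5), and each day 14 library was above the day 0 median. The rise on day 14 vs. day 0 was 0.48 on the log2 scale (1.39-fold, standard error 0.12, adjusted p = 0.00172, higher in 13 animals). This call depended on the processing: the estimate was 0.05 without TMM (adjusted p = 0.695, higher in 8 animals) and 0.34 with the RNA integrity number (adjusted p = 0.108).

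PRDX1, a cytosolic relative of PRDX2, did not pass the threshold in any comparison. Its median was 60.03 scaled FPKM on day 0 (48.5 to 136), 62.7 on day 3 (34.1 to 82.3) and 76.9 on day 14 (50.2 to 107), and the days overlapped throughout. On day 14 vs. day 0 the estimate was 0.14 (95% interval −0.10 to 0.37, adjusted p = 0.348), with 8 animals higher and 7 lower, and it was −0.29 without TMM. PRDX2 and PRDX1 share the cytosol, and the ratio of their FPKM, which no scaling factor can change, had medians of 1.42, 4.28 and 8.63 on days 0, 3 and 14. The ratio was above the animal's own day 0 value in 15 of 15 animals on day 3 and in 14 on day 14.

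Within a library, the share of each peroxiredoxin in the summed FPKM of the 5 does not depend on scaling either. These shares and ratios were chosen after the values had been seen and are given as a description. PRDX2 made up a median of 24.3% on day 0 (9.52% to 52.8%), 44.6% on day 3 (17.3% to 70.5%) and 48.2% on day 14 (24.6% to 73.6%), and it exceeded the animal's own day 0 share in 14 and 15 of 15 animals. The share of PRDX1 went from 16.7% to 10.4% and 6.12% by the medians, and that of PRDX3 from 10.5% to 7.11% and 4.31%. PRDX6 had 34.7% on day 0, more than PRDX2, and 28.9% and 28.2% on the later days. PRDX5 had 11.6%, 8.89% and 8.69%, so that its higher level on day 14 went with a share below its own day 0 value in 13 of 15 animals.

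**Figure D4:**
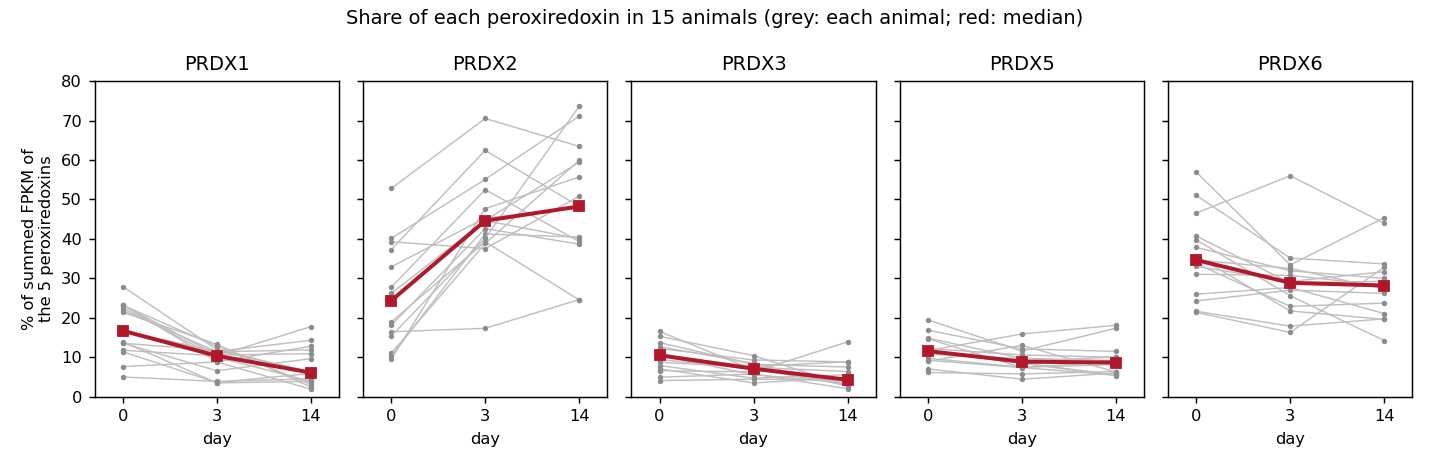
Share of PRDX1, PRDX2, PRDX3, PRDX5 and PRDX6 in their summed FPKM (percent) on days 0, 3 and 14, with a grey line for each of 15 animals and the median in red. The share of PRDX2 is higher on day 14 than on day 0 in all 15 animals, and the medians of the other 4 are lower.

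SOD2 was the enzyme with the highest level on day 0, with a median of 467 scaled FPKM and a range of 254 to 1829. On day 3 the range was 187 to 826 with a median of 483, and on day 14 it was 157 to 854 with a median of 466. The medians were close, while the upper end of the range came down. Animals 11 and 15, at 1829 and 1341 on day 0, were the highest. The log2 fold change was −0.45 on day 3 (standard error 0.22, adjusted p = 0.156) and −0.48 on day 14 vs. day 0 (standard error 0.22, adjusted p = 0.0781), with 10 and 9 of 15 animals lower. For day 14 it was called down without TMM (−0.90, adjusted p = 1.52e-04) and when animal 1 or animal 5 was left out (−0.58 and −0.61, adjusted p = 0.0378 and 0.0151). Neutrophil markers fell over the same interval, as given above, and their part in these values was not tested.

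SOD1, the copper- and zinc-containing enzyme, had a median of 35.4 scaled FPKM on day 0 (17.5 to 115), 35.1 on day 3 (14.8 to 62.6) and 46.5 on day 14 (31.1 to 69.6). The day 0 value of animal 10, 115, was far above the next, 59.8 in animal 13. The day 14 vs. day 0 estimate of 0.38 did not pass (standard error 0.17, adjusted p = 0.0721, higher in 11 animals), and it was −0.05 without TMM. Left out in turn, animals 2, 10 and 13 each brought it past the threshold, with 0.51 (adjusted p = 0.00842) without animal 10. The ratio of SOD2 to SOD1 had a median of 19.2 on day 0 (3.18 to 58.3), 11.98 on day 3 (4.51 to 32.6) and 9.85 on day 14 (3.77 to 16.04), and was below the animal's own day 0 value in 10 and 11 animals.

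GPX4 varied little between animals on day 0 after TMM, with an SD of the log2 level of 0.15, against 0.40 without TMM. Its medians were 56.8, 66.4 and 64.0 scaled FPKM on days 0, 3 and 14, with ranges of 44.98 to 71.4, 41.5 to 99.1 and 39.3 to 83.0. No comparison passed the threshold, with log2 fold changes of 0.17 on day 3 (95% interval 0.00 to 0.34, adjusted p = 0.155) and 0.13 on day 14 vs. day 0 (−0.04 to 0.30, adjusted p = 0.221). Without TMM the latter was −0.30, and GPX4 was called down between day 3 and day 14 (−0.42, adjusted p = 0.0114). The ratio of CAT to GPX4, which act on hydrogen peroxide and on lipid peroxides, had medians of 2.68, 4.44 and 6.44 on days 0, 3 and 14, and was above the animal's own day 0 value in 11 and 14 of 15 animals.

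TXN, the thioredoxin that hands electrons to peroxiredoxins, was lower by the median on day 3 than on either other day. It ranged from 11.8 to 87.1 scaled FPKM on day 0 with a median of 29.6, from 10.7 to 42.0 on day 3 with a median of 22.0, and from 16.9 to 55.4 on day 14 with a median of 35.8. Animals 7, 11 and 15 were the highest on day 0, and all 3 had lower values on the later days. On day 3 vs. day 0 the estimate was −0.41 (standard error 0.19, with 11 animals lower, adjusted p = 0.125), and it passed the threshold without TMM (−0.46, adjusted p = 0.0441). The day 14 vs. day 0 estimate was 0.20 (adjusted p = 0.414), and −0.23 without TMM.

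Between day 3 and day 14, when place and sedation were the same, TXN rose by 0.61 on the log2 scale (1.53-fold, standard error 0.19, limma adjusted p = 0.01996), with a higher level in 14 of 15 animals. PRDX6 rose by 0.66 (1.58-fold, standard error 0.24, adjusted p = 0.0438, higher in 10 animals) and CAT by 0.58 (1.497-fold, standard error 0.21, adjusted p = 0.0410, higher in 11 animals). Close below the threshold were SOD1 (0.45, adjusted p = 0.0506, higher in 13 animals) and PRDX5 (0.61, adjusted p = 0.0614, higher in 10 animals), but without TMM these estimates were 0.07 (adjusted p = 0.705, higher in 7 animals) and 0.23 (adjusted p = 0.264, higher in 9). The 3 rises lay near the threshold. Without the replicate block 0 of the 10 enzymes passed (13.3% of all genes did), with adjusted p-values of 0.0626 for TXN, 0.0922 for PRDX6 and 0.171 for CAT. With the RNA integrity number the 3 calls were lost at estimates of 0.55 for TXN, 0.57 for PRDX6 and 0.56 for CAT (adjusted p = 0.0839, 0.160 and 0.113), and without TMM they were lost at smaller estimates of 0.23, 0.28 and 0.20 (adjusted p = 0.203, 0.156 and 0.252). The calls of PRDX6 and CAT were each lost on leaving out any of animals 2, 3, 8, 9, 12, 14 and 15. Leaving out an animal brought SOD1 past the threshold in 4 fits, PRDX5 in 2 and PRDX3 in 1. Without animal 8 the estimates were 0.53 for TXN (adjusted p = 0.0611), 0.49 for PRDX6 (0.135) and 0.47 for CAT (0.122). Animal 8 had the highest day 14 minus day 3 change of all 15 for PRDX6, CAT and TXN, at 3.00, 2.22 and 1.74. By the study's supplement, the RNA of its day 3 library had the lowest integrity number of all libraries. That library also held the lowest day 3 level of PRDX6 and of CAT, 73.8 and 81.1 scaled FPKM, but not of TXN. The part of RNA quality in the changes of animal 8 was not tested.

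FPKM are per length, so the levels of the enzymes can be ordered within a library. On day 0 the order of the mean log2 levels was SOD2, CAT, PRDX6, PRDX2, PRDX1, GPX4, PRDX5, PRDX3, SOD1 and TXN. Only SOD2 stood apart from its neighbour, above CAT by 1.72 (two-sided exact sign-flip test over 15 animals, adjusted p = 0.00110 over 9 neighbours), and the differences of the other 8 did not pass the threshold. On day 3 PRDX2 was second, behind SOD2 by 0.51 (adjusted p = 0.0891), and on day 14 it was first, ahead of SOD2 by 0.32 (adjusted p = 0.3003). Neither difference passed the threshold. On the later days a gap lay between the 4 most abundant enzymes and the rest. PRDX6, the fourth, exceeded PRDX5, the fifth, in 15 of 15 animals by 1.63 on day 3 and by 1.68 on day 14 (adjusted p = 5.49e-04 on both). TXN was the lowest on each day, below SOD1 by 0.62 on day 3 (adjusted p = 8.24e-04) and by 0.46 on day 14 (adjusted p = 0.00330). Whether SOD1 or TXN shares reads with a near-identical copy, which could shift its level, was not checked.

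The animals differed most in PRDX2 on each day, with or without TMM. They differed least in GPX4 on day 0, in PRDX1 on day 3 and in PRDX3 on day 14, but without TMM least in PRDX3 on day 0 (SD of the log2 level 0.30, against 0.40 for GPX4). The SD of the log2 level over 15 animals was 1.33, 1.14 and 1.31 for PRDX2 on days 0, 3 and 14. It was 0.15, 0.34 and 0.27 for GPX4, 0.42, 0.30 and 0.36 for PRDX1, and 0.29, 0.48 and 0.25 for PRDX3. For SOD1 and TXN the SD was higher on day 0 than on day 14, at 0.64 and 0.34 for SOD1 and 0.87 and 0.47 for TXN, and whether these spreads differed was not tested.

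The day 14 minus day 0 changes of the enzymes were correlated over the 15 animals in 19 of 45 pairs, each positively (permutation test with 100000 resamples, two-sided, Benjamini-Hochberg over 45 pairs), and 17 of these also by rank. Each animal's changes share its libraries and their scaling factors, and without TMM 6 pairs passed. PRDX2 and CAT had the highest correlation, r = 0.88 (permutation p = 3.0e-05, adjusted p = 4.5e-04) and rho = 0.88 (permutation p = 5.0e-05, adjusted p = 0.00157), with r = 0.80 without the 2 animals whose PRDX2 change was farthest from its median. In each pair the 2 farthest animals were those of 1 gene only, the one that comes first in the opening list of enzymes. PRDX6 went with PRDX5 (r = 0.87, rho = 0.85), with PRDX2 (r = 0.84, rho = 0.86) and with CAT (r = 0.82, rho = 0.86), and their r without the 2 farthest animals was 0.92, 0.83 and 0.81. PRDX1, PRDX3 and SOD1 were also correlated with each other (r between 0.81 and 0.83). Of these pairs, PRDX6 with CAT (r = 0.53, adjusted p = 0.186) and PRDX3 with SOD1 (r = 0.65, adjusted p = 0.0563) did not pass without TMM. The 6 that passed were PRDX2 with CAT, PRDX6 and PRDX5, PRDX5 with PRDX6, and PRDX1 with PRDX3 and SOD1, with r between 0.68 and 0.87. GPX4 was in 9 pairs and passed in 0 of them with or without TMM. Its r lay between 0.02 and 0.41 with TMM, and without TMM between −0.56 (with PRDX2) and 0.59 (with PRDX1), below 0 in 6 of the 9 pairs. Of the 19 pairs, 16 had an r of at least 0.5 without the 2 farthest animals, and PRDX2 with PRDX3 dropped from 0.67 to 0.37. That pair did not pass without TMM, where its r was −0.12.

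**Figure D5:**
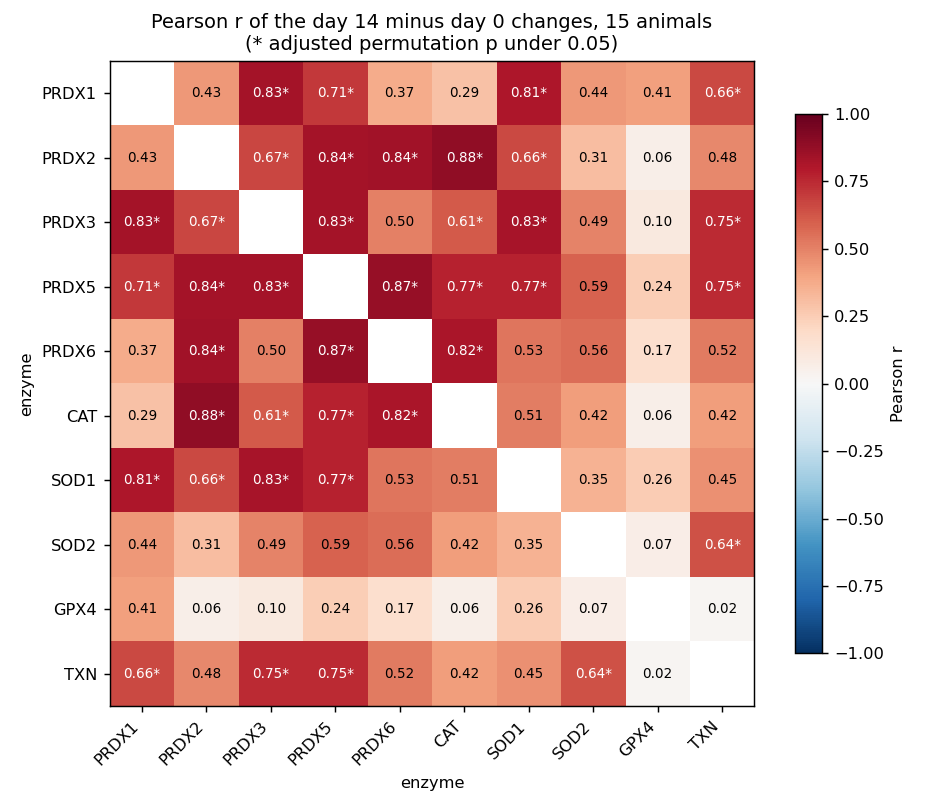
Pearson r of the day 14 minus day 0 log2 changes (TMM-scaled) over 15 animals for each pair of enzymes, with an asterisk where the adjusted permutation p-value was under 0.05. PRDX2, PRDX5, PRDX6 and CAT share high values, and the row of GPX4 stays between 0.02 and 0.41.

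Other genes of the same defence were taken from a list of 45 genes, of which 43 were tested, while GPX8 and SOD3 did not pass the filter on low values. On day 3 vs. day 0, 9 rose and 5 fell, where 10.1% of all tested genes were called up and 9.01% down, so that the falls are close to the background. Without the animal block it was 5 and 3 (6.03% and 6.19% of all genes), and with the RNA integrity number 6 and 3 (7.98% and 6.77%). Leaving out animal 7 gave 8 calls, and leaving out animal 11 or animal 15 gave 9. Over the fits that left out 1 animal, all genes called numbered between 2735 and 3688, in place of 3592. The largest rises were GLRX5, a mitochondrial glutaredoxin of iron-sulfur cluster assembly (1.67, adjusted p = 0.00125 from limma), the glutathione peroxidase GPX1 (1.48, adjusted p = 0.0123) and CCS, the copper chaperone of SOD1 (1.20, adjusted p = 0.00102), each higher in 15 of 15 animals. The methionine sulfoxide reductase MSRB1 (−0.84), PGD of the pentose phosphate pathway (−0.63) and TXNIP, which binds and inhibits thioredoxin (−0.45), had the largest falls, with adjusted p = 0.0185, 0.0489 and 0.00608, and the call of PGD was lost with the RNA integrity number (−0.58, adjusted p = 0.114).

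On day 14 vs. day 0, 19 of the 43 rose and 10 fell, against 23.0% and 21.0% of all genes, so that the falls are close to the background. Without TMM 8 rose and 16 fell, against 9.29% and 49.9%, and with the RNA integrity number 10 rose and 6 fell, against 12.9% and 8.76%. GPX1 (2.77, adjusted p = 4.65e-06), GLRX5 (2.73, adjusted p = 5.83e-07) and BLVRB, a biliverdin reductase abundant in red cells (2.35, adjusted p = 4.03e-06), rose most and were called without TMM as well. MSRB1 (−0.95, adjusted p = 0.00297), PGD (−0.84, adjusted p = 0.00356) and MAFG, a small Maf protein that pairs with NRF-type factors (−0.80, adjusted p = 1.01e-04), fell most, and of the 6 named here the call of PGD was lost with the RNA integrity number (−0.72, adjusted p = 0.0824). By group, the glutathione system had 7 rises and 1 fall among 12 genes, PRDX4 and the thioredoxin system 5 and 4 among 10, regulators and phase II genes 5 and 1 among 9, NADPH supply 1 and 2 among 7, and methionine sulfoxide reductases 0 and 2 among 4. These counts depended on the scaling, and without TMM they were 3 and 2 for the glutathione system, 2 and 4 for PRDX4 and the thioredoxin system, 1 and 4 for regulators and phase II genes, 1 and 3 for NADPH supply, and 0 and 3 for the reductases. With the RNA integrity number they were 5 and 1, 3 and 2, 1 and 1, 0 and 0, and 0 and 2, in the same order. From day 3 to day 14, 12 rose and 2 fell, against 13.9% and 9.81% of all genes, and without TMM 5 rose and 18 fell, against 4.98% and 46.1%. The calls numbered 7, all up, with the RNA integrity number (9.81% of all genes in either direction, 7.51% up) and also without animal 8, and 8, all up, without the animal block (13.3% in either direction, 8.32% up). Without animal 3, 12 or 14 there were 9. Over the fits that left out 1 animal, all genes called here numbered between 2656, without animal 8, and 5117, in place of 4455. GPX1 (1.29, adjusted p = 0.0249), BLVRB (1.27, adjusted p = 0.0105) and GLRX5 (1.05, adjusted p = 0.0247) again had the largest rises, and NXN (−0.51, adjusted p = 0.0297) and MAFG (−0.42, adjusted p = 0.0469) fell. Of these 5, BLVRB kept its call with the RNA integrity number (adjusted p = 0.0464), whereas GPX1 (1.17, adjusted p = 0.0972), GLRX5 (1.03, 0.0768), NXN (−0.41, 0.145) and MAFG (−0.35, 0.174) lost theirs with estimates close to those above. In 12 genes no comparison passed the threshold, among them NFE2L2, a regulator of many antioxidant genes, and the glutathione reductase GSR. Without TMM 8 of the 12 were called in at least 1 comparison, and both named genes were lower on day 14 than on day 0 (NFE2L2 −0.51, adjusted p = 2.26e-04, and GSR −0.61, adjusted p = 0.00113) and than on day 3 (−0.37, adjusted p = 0.00697, and −0.53, adjusted p = 0.0063). In these comparisons 49.9% and 46.1% of all genes were then called down, with medians of −0.36 and −0.35 over all genes. The change of NFE2L2 against day 3 is thus that of the typical gene.

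The genes whose log2 levels over the 45 libraries were most like those of each enzyme were sought among 10939 genes with a mean of at least 5 CPM (fragments scaled to the library's total). The r is a description, since the libraries share animals, depth and scaling. For PRDX2 they were BLVRB (r = 0.96), SLC43A1 (0.95) and CCS (0.95), and for CAT they were CCNDBP1, PSME4 and SLC16A1 (0.92 each). SOD2 went with RALB (0.92), IGSF6 (0.91) and ARG2 (0.90), and PRDX6 with LOC103242690, DYNLRB1 and C21H7orf73 (0.93, 0.92 and 0.92). PRDX1 (PSMA1, SDHAF2 and RAN, 0.83 to 0.82), PRDX3 (HSD17B10, NDUFB6 and LOC103241089, 0.86 to 0.85), PRDX5 (SNF8, ATP6V1F and LOC103241089, 0.88 to 0.87) and GPX4 (NDUFS8, MRPS34 and DCXR, 0.83 to 0.80) had looser neighbours. The gene most like SOD1 was LOC103248206 (r = 0.94), ahead of NAA38 and NOP10 (0.88 each), and the gene most like TXN was LOC103221232 (r = 0.95), ahead of B2M and IFI27L2 (0.89 and 0.88). Both LOC genes are known here by identifier alone, and whether either is a near-identical copy that shares reads with SOD1 or TXN was not checked.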

How the data were processed

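Whole-blood RNA of 15 animals was sequenced at each of 3 time points (stranded libraries after ribosomal and globin depletion). Per the paper's methods and the labels, the authors aligned reads to Chlorocebus_sabeus 1.1 with STAR and counted fragments with HTSeq (bcl2fastq 2.17 before it); other versions and settings are not given in the sources used here. The deposited values are FPKM as judged from the values, since the labels do not name the unit, and 100% of values above 0 were whole fragments within a tolerance of 0.02. The day of each sample (0, 3 or 14) was taken from its labels. The other sources differ on it, as the series' design text puts the last time point on day 15 and a sentence of the paper's methods lists RNA tubes for days 0, 7 and 14.

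Each deposited FPKM was divided by a TMM factor computed from the recovered fragments, 0.1 was added, and log2 values were fitted with limma 3.58.1 in R 4.3.3, with time point and animal as terms, over 18753 genes with more than 0.5 CPM in at least 3 samples, a limit of 6.61 to 15.7 fragments depending on the library. P-values were adjusted by Benjamini-Hochberg over all tested genes, with a threshold of 0.05. The study's own test was a count model, and none was run here. The animal stands in the labels, and after removal of the time point means same-animal libraries correlated with a mean r of 0.328, above 0.1 in 41 of 45 pairs (different animals −0.0231). Scripts were tested on simulated data.

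All 10 enzymes were named. Of the other antioxidant genes, those past the threshold with the 3 largest rises and falls in each comparison were named, and for each enzyme the 3 most correlated genes. Members and lists were chosen with earlier results of these data known. Alternatives were no animal block, no or median-of-ratios scaling, pseudocounts of 1 and 0.01, no filter, the RNA integrity number (from the study's supplement) as a covariate, and leaving out each animal. All 10 symbols have an entry in RefSeq's gene table of another assembly, so no coordinates are given, and no sequences were used here.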

Additional observations from a re-analysis of the deposited data

How the results depend on the processing

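Against day 0, the calls of PRDX2, PRDX6 and CAT on day 14 and of PRDX2 on day 3 were made under every alternative run, leaving out each animal included. Those of PRDX3 and PRDX5 on day 14 were lost as given above, PRDX3 without TMM and both with the RNA integrity number. Without the replicate block, which pairs the 3 libraries of an animal, 2290 genes were called on day 3 vs. day 0. For day 14 against day 3 it was 2498 genes and 0 of the 10 enzymes. No call of an enzyme against day 0 changed without it.

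Without TMM, 3 enzymes were called for day 3 (2 higher, 1 lower), 5 for day 14 against day 0 (4 higher, 1 lower) and 1 for day 14 against day 3 (GPX4, −0.42, adjusted p = 0.0114). In that last comparison 9574 genes were called (933 higher, 8641 lower), and 6 pairs of enzymes were correlated. Against day 0, 1742 genes were then higher on day 14 and 9360 lower, in place of 4317 and 3934. Signs turned for PRDX1 (−0.29), SOD1 (−0.049), GPX4 (−0.30) and TXN (−0.23) on day 14 vs. day 0 and for PRDX1 (−0.12) and PRDX3 (−0.15) on day 14 vs. day 3, none of them past the threshold. With no filter on low values 1 enzyme, TXN, was called on day 14 vs. day 3. That fit called fewer genes in all against day 0, 2972 on day 3 and 7670 on day 14, in place of 3592 and 8251. With the RNA integrity number 3 enzymes and 4069 genes were called for day 14 against day 0, and 0 enzymes and 1840 genes against day 3, while PRDX1 (−0.12) and GPX4 (−0.040) turned on day 14 vs. day 0. Without the 2 libraries that stood apart, chosen after seeing the data, SOD2 on day 14 vs. day 3 was 0.041 and PRDX5 was also called in that comparison (0.66, adjusted p = 0.0462). The cause of these shifts was not tested.

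On leaving out each animal, between 1 and 2 enzymes were called on day 3 vs. day 0 (2 without animal 5, 8 or 15) and between 0 and 6 on day 14 vs. day 3 (0 without animal 8, 6 without animal 6, 5 without animal 13, and 1 without animal 2, 3, 9, 12, 14 or 15). The enzyme added to PRDX2 on day 3 was SOD2, lower, in 1 fit and CAT, higher, in 2. All genes called on day 3 vs. day 0 numbered between 2735, without animal 2, and 3688, without animal 5. On day 14 vs. day 3 they numbered between 2656, without animal 8, and 5117, without animal 6. The lowest and highest enzyme counts of that comparison thus came with the lowest and highest counts of all genes. The small estimates of SOD1 on day 3 vs. day 0 (−0.14 to 0.023) and of SOD2 (−0.11 to 0.018) and GPX4 (−0.082 to 0.018) on day 14 vs. day 3 crossed 0. No value of the enzymes rested on fewer than 174 fragments, and the effect of depth on the calls was not tested.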
